A study of Homo sapiens with 4 samples.

Results

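The ephrin-B ligands and the EphB receptors were followed through hematopoietic differentiation of a human pluripotent stem cell line. The 8 genes were chosen by name, 3 ligands (EFNB1, EFNB2 and EFNB3) and 5 receptors (EPHB1, EPHB2, EPHB3, EPHB4 and EPHB6), out of 58274 gene identifiers in the table, and each was found on 1 row. All 4 libraries came from BC1, an induced pluripotent stem cell line. Undifferentiated cells were one population, and the others were sorted for APLNR on day 2 (mesoderm), for CD31 and CD34 on day 5 (hemogenic endothelial progenitors, HEPs) and for CD43 on day 8 (hematopoietic progenitor cells, HPCs). The differentiating cells received activin A and BMP4 until day 2 and then VEGF and bFGF. The apelin receptor APLNR marks early mesoderm, CD31 together with CD34 marks endothelial cells, and CD43 marks early hematopoietic cells. Each population had 1 library from 1 cell line, so differences have no replicate check and are given without tests or p-values. Gene expression is given in FPKM, fragments per kilobase of transcript scaled to the mapped fragments of the library, which allows levels of genes of different length to be set side by side within a library.

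Ephrins and Eph receptors are both anchored in the cell membrane, so they signal mainly between cells that touch. Binding of an ephrin-B clusters the EphB receptor and starts its tyrosine kinase (forward signaling), while the tail of the ephrin-B signals into the cell that carries it (reverse signaling). Such contacts mostly make cells repel each other or sort apart, and they set boundaries between tissues. In blood vessels, EFNB2 is the classical marker of arterial endothelium and EPHB4, its receptor, that of venous endothelium. In the intestine, EPHB2 and EPHB3 are known targets of Wnt signaling.

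The libraries held between 19600000 and 23600000 mapped fragments, as recovered from the steps between low values. The sorting marker genes were highest in the library sorted for them or, for PECAM1, the gene of CD31, in the population after it. The level of PECAM1 was 93.1 FPKM in the HEPs and 126 FPKM in the HPCs. PTPRC, the gene of CD45, stayed at or below 0.0349 FPKM in all 4 libraries. It was 1 of 6 hematopoietic genes examined, of which 5 had at least 1 FPKM in HEPs and in HPCs. In these 2 populations LAPTM5 was at 180 and 205 FPKM, ITGA2B at 60.9 and 982 FPKM and RUNX1 at 60.1 and 137 FPKM. GATA1 was at 13.4 and 190 FPKM and SPN, the gene of CD43, at 11.7 and 92.4 FPKM. A gene is said to have risen or fallen when log2(FPKM + 1) changed by at least 1 between 2 libraries. This scale understates the change of genes with low values, so the ratio of the FPKM values is given as the fold, with a 95% interval that covers counting error only.

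The 8 genes followed different courses: EPHB2 and EPHB3 peaked in the mesoderm cells, 5 genes with EPHB4 among them were highest in the HEPs, and EFNB1 alone was highest in the HPCs. For EPHB1 and EPHB6 the level in the HEPs was within counting error of that in BC1. From BC1 to APLNR+, EPHB3, EFNB1 and EPHB2 rose and none of the 8 fell, where 9.15% of the 17137 genes with at least 1 FPKM in some library rose and 9.32% fell. At the next step, to CD31+CD34+, EPHB4 and EFNB1 rose, where 13.0% of all genes did, and EPHB2 and EPHB3 fell, where 11.4% did. At the last step, to CD43+, 0 of the 8 rose, where 7.63% of all genes did, and 5 fell, namely EPHB3, EPHB4, EFNB3, EPHB6 and EPHB2, where 13.5% did. The median change of the 8 genes was 0.56, 0.26 and -1.82 on the log2 scale over these transitions, beside 0.00, 0.01 and -0.08 for all genes. In bulk libraries, fewer cells that express a gene and less of its RNA per cell cannot be told apart.

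**Figure D1:**
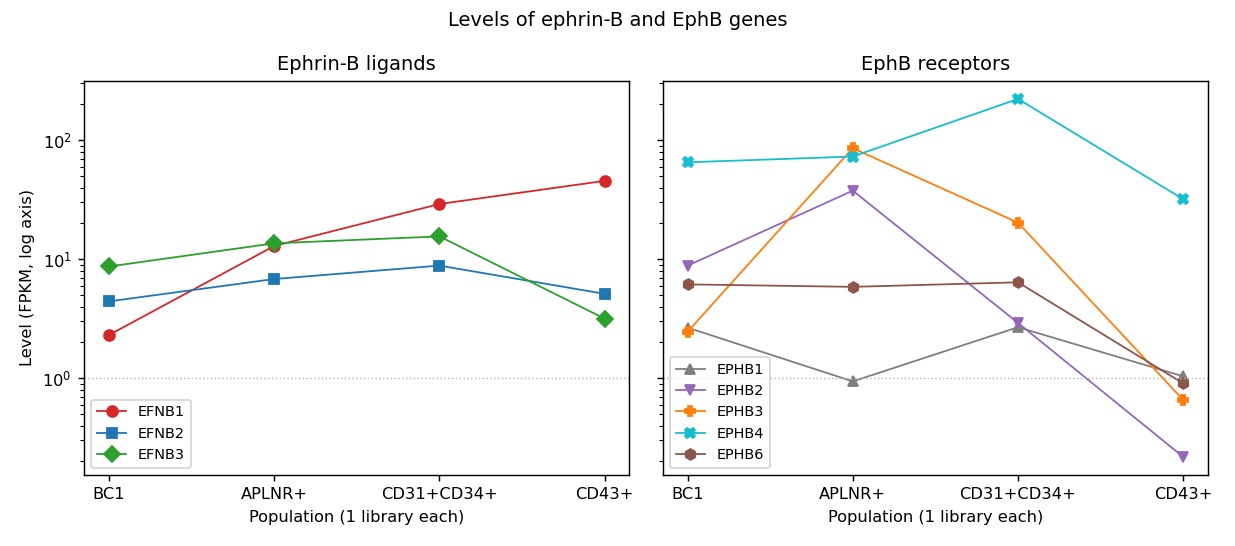
Levels of the 3 ephrin-B ligands (left) and the 5 EphB receptors (right) in FPKM on a log axis, with 1 point for each of the 4 libraries and a dotted line at 1 FPKM. EFNB1 climbed from 2.31 to 45.6 FPKM, EPHB2 and EPHB3 peaked in APLNR+, and EPHB4 peaked in CD31+CD34+.

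EPHB3 (ENSG00000182580.2, chromosome 3, 184561784 to 184582409, GRCh38) encodes a receptor kinase for ephrin-Bs. Its level was 2.46 FPKM in undifferentiated cells, 85.8 FPKM in mesoderm cells, 20.3 FPKM in HEPs and 0.657 FPKM in HPCs. It was thus highest in the mesoderm cells and still above its BC1 level in the HEPs. The rise from BC1 to APLNR+ was 34.9-fold (95% interval 30.2 to 40.4). It then fell 4.22-fold (4.01 to 4.44) in CD31+CD34+ and 30.9-fold (23.6 to 41.0) in CD43+. In all 3 of these steps its log2 change, 4.65, -2.03 and -3.68, passed the threshold, and the first and the last lay outside the central 95% of all genes, which ran from -1.92 to 2.10 at the first step.

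EPHB2 (ENSG00000133216.16, chromosome 1, 22710839 to 22921500), a receptor kinase best known from axon guidance and the intestinal crypt, peaked in the same library. Its levels in the order of differentiation were 8.83, 37.7, 2.92 and 0.218 FPKM. The rise was 4.27-fold (3.91 to 4.68), from a higher start than that of EPHB3. The fall to CD31+CD34+ was 12.9-fold (11.3 to 14.8), against 4.22-fold for EPHB3, so EPHB2 was already below its BC1 level in the HEPs. At the last step it fell a further 13.4-fold (8.03 to 23.7), to a level that rested on about 15.9 fragments. From BC1 to CD43+ the fall was 40.5-fold (24.6 to 71.0). The FPKM of EPHB3 was 0.278 times that of EPHB2 in the BC1 library and 2.27, 6.96 and 3.01 times in the later ones. The order of these receptors was therefore different in BC1 from that in every later population.

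EPHB4 (ENSG00000196411.9, chromosome 7, 100802565 to 100827521), the receptor of venous endothelium for EFNB2, was at 65.3 FPKM in undifferentiated cells, 72.9 FPKM in mesoderm cells, 222 FPKM in HEPs and 32.0 FPKM in HPCs. It was the highest of the 5 receptors in 3 of the libraries, and in APLNR+ EPHB3 lay above it, with counting intervals of 83.8 to 87.8 FPKM for EPHB3 and 71.0 to 74.9 FPKM for EPHB4. Among all genes that passed the filter, it stood at percentile 91.6, 91.8, 97.8 and 82.3 of the 4 libraries. The first difference was 1.12-fold (1.07 to 1.16) and did not pass the threshold. EPHB4 then rose 3.05-fold (2.96 to 3.14) in CD31+CD34+ and fell 6.95-fold (6.66 to 7.26) in CD43+. The net difference between BC1 and CD43+ was a 2.04-fold fall (1.94 to 2.14), with a log2 change of -1.01, just past the threshold and short of it when libraries were divided by size factors (-0.98). SLC12A9, on the other strand, shares 69 exon bases with EPHB4 and was between 21.9 and 26.8 FPKM in the 4 libraries. The summed level of endothelial markers was also highest in CD31+CD34+. The 6 endothelial genes examined (PECAM1, CDH5, TIE1, CD34, EMCN and ESAM) summed to 7.66, 3.50, 748 and 330 FPKM in the 4 populations, and all 6 had at least 1 FPKM in CD31+CD34+ and in CD43+. All 6 rose from APLNR+ to CD31+CD34+. In CD43+ CDH5, TIE1 and CD34 fell, to 9.38, 70.8 and 42.6 FPKM, while PECAM1, EMCN and ESAM changed by less than the threshold, with log2 changes of 0.44, 0.27 and -0.35. In BC1, where EPHB4 was at 65.3 FPKM, TIE1 was at 6.44 FPKM, EMCN was listed at 0 and the other 4 were between 0.162 and 0.523 FPKM. The part of the endothelial markers in the change of EPHB4 was not tested.

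The sequence upstream of the RefSeq start of these 3 receptors is shown because these receptors rose past the threshold, EPHB2 and EPHB3 in one population and EPHB4 in another. The table is on build GRCh38.p14. Capitals mark GGAA or its reverse complement TTCC, the core of the sites of ETS factors, of which several are active in endothelium. Bases that an annotated exon of the gene covers were left off. EPHB2 is printed from chr1:22710588-22710837 on the plus strand, EPHB3 from chr3:184561535-184561783 on the plus strand and EPHB4 from chr7:100827524-100827773 on the minus strand.
EPHB2: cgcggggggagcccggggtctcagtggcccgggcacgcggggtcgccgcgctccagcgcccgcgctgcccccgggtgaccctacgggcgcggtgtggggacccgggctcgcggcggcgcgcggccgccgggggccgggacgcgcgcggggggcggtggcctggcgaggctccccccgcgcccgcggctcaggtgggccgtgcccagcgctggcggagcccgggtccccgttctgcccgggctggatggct
EPHB3: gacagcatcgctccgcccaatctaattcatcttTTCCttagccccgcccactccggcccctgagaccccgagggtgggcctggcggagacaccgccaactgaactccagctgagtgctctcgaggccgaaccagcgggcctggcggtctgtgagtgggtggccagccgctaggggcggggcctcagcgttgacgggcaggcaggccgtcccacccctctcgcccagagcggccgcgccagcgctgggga
EPHB4: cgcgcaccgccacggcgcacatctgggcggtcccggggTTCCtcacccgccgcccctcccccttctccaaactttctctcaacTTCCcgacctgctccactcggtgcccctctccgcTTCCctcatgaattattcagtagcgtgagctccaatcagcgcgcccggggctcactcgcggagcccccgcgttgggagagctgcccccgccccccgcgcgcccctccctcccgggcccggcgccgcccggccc

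EPHB4 held 3 such matches, EPHB3 held 1 and EPHB2 held 0, while 92.8% of the 27305 genes in the table had at least 1 within 250 bases. The share of guanine and cytosine was 84.8% in the EPHB2 window, 70.0% in that of EPHB3 and 72.8% in that of EPHB4, against a median of 58.0% over all genes. Of the 8 genes, 7 had an entry in the table, all but EFNB3, and 5 of these held the ETS core. EPHB1 and EPHB6 held 3 matches each, as many as EPHB4, while EFNB1 held 2 and EFNB2 held 0. The motif AGATAA, to which GATA factors bind, was found in 0 of the 7 windows and for 9.37% of all genes. The E-box motif CACGTG was likewise found in 0 of the 7 windows, beside 6.49% of all genes. For the Notch effector RBPJ the letters TGGGAA were searched, which overlap the ETS core, and they were present for EFNB1 and for 21.1% of all genes. For KLF factors the letters CACCC were searched, and they were present for 6 of the 7 and for 53.7% of all genes. Each motif was searched on both strands. A match is a description of these letters and not a site.

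EPHB6 (ENSG00000106123.11, chromosome 7, 142855061 to 142871094) is the family member whose kinase is inactive, so that it acts through partners. Its levels were 6.15, 5.86 and 6.40 FPKM in BC1, APLNR+ and CD31+CD34+, and 0.905 FPKM in CD43+. The first 3 values could not be told apart by counting, with ratios of 0.953 (0.826 to 1.10) and 1.09 (0.952 to 1.25) between neighbours. At the last step it fell 7.07-fold (5.38 to 9.34). EPHB6 fell together with EPHB4, by a similar fold, although it had not risen with it in CD31+CD34+. The coding sequence of the catalytic loop is given from the GENCODE transcript with the longest coding sequence of EPHB2, EPHB3, EPHB4 and EPHB6, to show where EPHB6 departs from its relatives. Each run has 30 bases. The 9 capitals are the catalytic motif, and their last codon is that of the catalytic residue of active kinases.
EPHB2: tatgttCACCGTGACctggctgcccgcaac
EPHB3: tatgtgCACCGCGACctggctgctcgcaac
EPHB4: tacgtcCACCGAGACctggctgctcgcaac
EPHB6: ttcgtcCATCGCTCGctgtctgcccacagc

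The last capital codon was the same in EPHB2, EPHB3 and EPHB4 and was another in EPHB6. The identity of whole coding sequences was between 60.0% and 70.1% among EPHB1 to EPHB4 and between 54.5% and 58.8% for EPHB6 with any of them. The longest run shared by any pair of the 8 genes was 36 bases, between EPHB3 and EPHB4.

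EPHB1 (ENSG00000154928.16, chromosome 3, 134597801 to 135260467), a receptor kinase with a role in axon guidance, was the lowest receptor in APLNR+. Its levels were 2.66, 0.941, 2.68 and 1.04 FPKM, so it was lower in APLNR+ and CD43+ than in the other 2 libraries. Its log2 changes of -0.92, 0.92 and -0.85 did not pass the threshold. They did when libraries were rescaled to a common total (TPM), with values of -1.06, 1.11 and -1.08, and with a pseudocount of 0.1. The changes were 2.83-fold downward, 2.85-fold upward and 2.59-fold downward. In CD31+CD34+ the counting intervals of EPHB1 (1.59 to 4.24 FPKM) and EPHB2 (2.56 to 3.32 FPKM), both at the median transcript length, overlapped. With the length of its longest coding transcript the intervals were 2.21 to 3.66, 2.23 to 3.65 and 2.05 to 3.29. With the median length, which short partial transcripts of EPHB1 set, they were 1.06 to 8.94, 1.11 to 8.96 and 1.04 to 8.41.

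Among the ligands, EFNB1 (ENSG00000090776.5, chromosome X, 68828997 to 68842147) had a course of its own. Its level was 2.31 FPKM in undifferentiated cells, 12.9 FPKM in mesoderm cells, 29.1 FPKM in HEPs and 45.6 FPKM in HPCs, higher in each population than in the one before it. The steps were 5.59-fold (4.66 to 6.72), 2.25-fold (2.08 to 2.44) and 1.57-fold (1.48 to 1.66), and the last of them, 0.63 on the log2 scale, did not pass the threshold. From BC1 to CD43+ the difference was 19.7-fold (16.6 to 23.5). It was the only member of the 8 to rise over the whole course, where 15.2% of all genes rose, and EFNB3, EPHB2, EPHB3, EPHB4 and EPHB6 fell, where 18.9% did. Its place among all genes went from percentile 30.3 in BC1 to 87.3 in CD43+. The summed levels of erythroid and megakaryocytic markers were higher after the last step as well. The 6 erythroid genes examined summed to 46.9 FPKM in HEPs and 11191 FPKM in HPCs, with all 6 at 1 FPKM or more in the latter, and the 5 megakaryocytic genes to 31.7 and 2109 FPKM, with all 5 at 1 FPKM or more. In HPCs HBE1 and HBG2 alone were at 5271 and 5256 FPKM. The 5 myeloid genes examined summed to 40.3 FPKM in HEPs and 126 FPKM in HPCs. Of these 5, 3 were at 1 FPKM or more in HPCs. SPI1 made up most of the sum, at 32.0 and 104 FPKM, and MPO and CD14 were below 1 FPKM in both populations. From BC1 to APLNR+, where EFNB1 rose 5.59-fold, the erythroid sum went from 1.56 to 10.1 FPKM. The megakaryocytic sum went from 3.37 to 0.670 FPKM there. The part of these markers in the level of EFNB1 was not tested.

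EFNB2 (ENSG00000125266.6, chromosome 13, 106489731 to 106535114), the arterial ligand, varied least of the 8 genes. Its levels were 4.42, 6.82, 8.84 and 5.12 FPKM, with the highest value in CD31+CD34+ and a ratio of 2.00 between the highest and the lowest library. None of its consecutive changes passed the threshold. They were 1.54-fold (1.36 to 1.75) and 1.30-fold (1.17 to 1.44) upward and then 1.73-fold (1.54 to 1.93) downward. An antisense gene, AL138689.2, shares 1313 exon bases with EFNB2 in the annotation and has no FPKM value in these data. Whether the authors counted by strand is not given in the sources used here, so fragments of the pair cannot be told apart.

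EFNB3 (ENSG00000108947.4, chromosome 17, 7705202 to 7711378), a ligand best known from the nervous system, was at 8.69, 13.6, 15.6 and 3.17 FPKM. It was the highest ligand in BC1 and the lowest in CD43+, and in APLNR+ its counting interval (12.7 to 14.6 FPKM) overlapped that of EFNB1 (12.1 to 13.8 FPKM). The first 2 steps, 1.57-fold (1.40 to 1.75) and 1.14-fold (1.04 to 1.25), were below the threshold. The last was a 4.91-fold fall (4.23 to 5.75), so EFNB3 and EFNB1 moved apart between CD31+CD34+ and CD43+.

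The last 99 coding bases of the 3 ligands are shown because they encode the end of the tail that carries reverse signaling, and because the ligands were more alike there than over their whole length. Capitals mark the 77 positions (77.8%) that were the same in all 3.
EFNB1: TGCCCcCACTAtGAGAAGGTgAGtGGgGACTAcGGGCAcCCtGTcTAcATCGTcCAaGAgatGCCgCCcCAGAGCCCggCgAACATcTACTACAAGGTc
EFNB2: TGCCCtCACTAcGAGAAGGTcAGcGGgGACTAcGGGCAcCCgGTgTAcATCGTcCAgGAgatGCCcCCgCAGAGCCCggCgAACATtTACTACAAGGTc
EFNB3: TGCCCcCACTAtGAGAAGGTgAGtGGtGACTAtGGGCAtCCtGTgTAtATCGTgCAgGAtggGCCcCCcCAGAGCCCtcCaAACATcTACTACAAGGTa

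Over the whole coding sequence the identity was 62.0% for EFNB1 and EFNB2, 56.6% for EFNB1 and EFNB3 and 53.9% for EFNB2 and EFNB3. In the tail it was 89.9%, 84.8% and 80.8%. The whole-length values count gaps of the alignment as differences, while the tails were compared position by position without gaps. The longest run shared by 2 of the ligands was 27 bases, between EFNB1 and EFNB3. The ligands thus had a like tail and levels that took different courses.

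**Figure D2:**
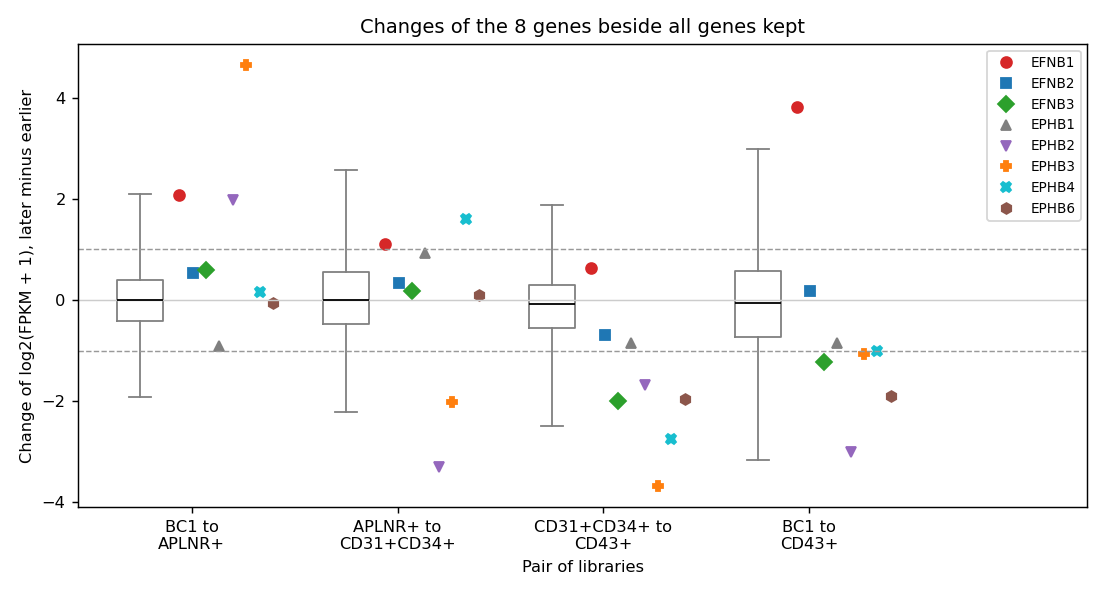
Changes of log2(FPKM + 1) of the 8 genes (coloured symbols) for the 3 consecutive pairs of libraries and for BC1 to CD43+, beside all 17137 genes that passed the filter (boxes from the lower to the upper quartile with the median as a line, whiskers at percentiles 2.5 and 97.5). Dashed lines mark changes of 1, and EPHB3 lies outside the whiskers from BC1 to APLNR+ (4.65) and from CD31+CD34+ to CD43+ (-3.68), as do EPHB2 at the second step (-3.30), EPHB4 at the third (-2.76) and EFNB1 from BC1 to CD43+ (3.81).

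The summed levels showed how the make-up of each side changed. In the order of differentiation, the 3 ligands summed to 15.4, 33.4, 53.5 and 53.9 FPKM. The sum was the same to within 1 FPKM in the last 2 populations, but EFNB1 made up 54.4% of it in CD31+CD34+ and 84.6% in CD43+. In BC1 EFNB3 had the largest share, 56.3%, and EFNB1 had 15.0%. The 5 receptors summed to 85.4, 203, 255 and 34.8 FPKM. The share of EPHB4 in the receptor sum was 76.5% in undifferentiated cells, 35.9% in mesoderm cells, 87.3% in HEPs and 91.9% in HPCs. In APLNR+ EPHB3 held 42.2% and EPHB2 held 18.6%, so this was the population with the most even make-up. The receptor sum was 5.53, 6.09 and 4.76 times the ligand sum in the first 3 populations and 0.646 times in CD43+, where the ligands together exceeded the receptors.

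**Figure D3:**
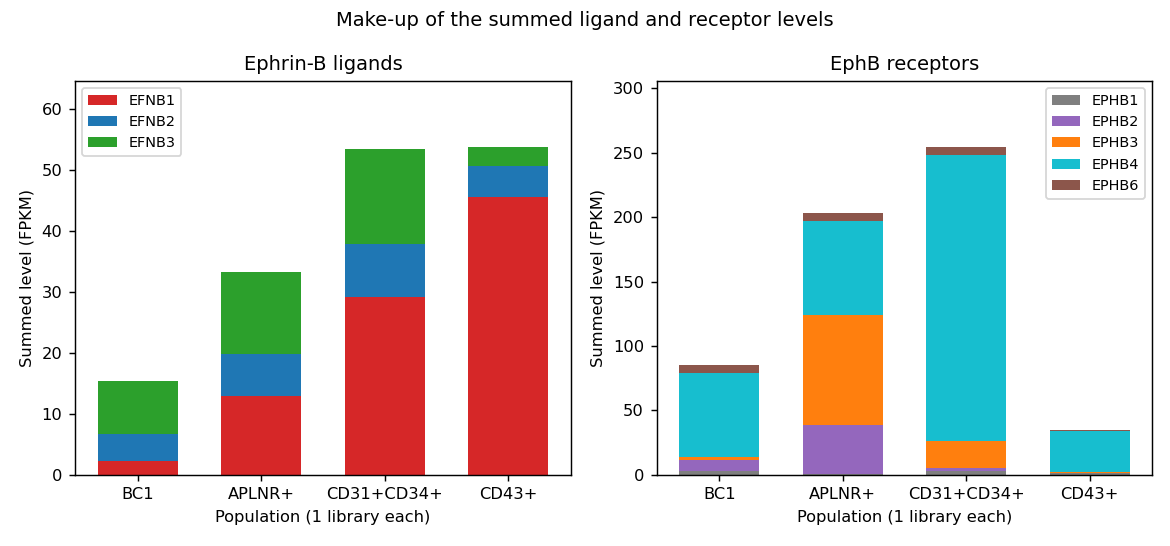
Summed FPKM of the 3 ligands (left) and the 5 receptors (right) in each of the 4 libraries, with the part of each gene in its own colour. The ligand sum was 53.5 FPKM in HEPs and 53.9 FPKM in HPCs, while the receptor sum went from 255 to 34.8 FPKM.

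For the arterial and venous pair, the FPKM of EPHB4 was 14.7 times that of EFNB2 in undifferentiated cells, 10.7 times in mesoderm cells, 25.2 times in HEPs and 6.25 times in HPCs. The receptor thus lay above the ligand in every library. Other arterial and venous genes were examined beside it. From APLNR+ to CD31+CD34+, 10 of 13 arterial genes that passed the filter rose and 0 fell, with a median change of 3.12, and 6 of 9 venous genes rose and 3 fell, with a median of 1.51. Of all genes 13.0% rose and 11.4% fell at this step, with a median of 0.01. Among them, GJA5, which encodes an arterial gap junction protein, rose from 0.590 to 51.2 FPKM, and NR2F2, the factor that sets venous identity, from 0.211 to 23.4 FPKM. FLT4, a VEGF receptor, rose from 4.91 to 193 FPKM. At this step EPHB4 passed the threshold and EFNB2, with a log2 change of 0.33, did not. From CD31+CD34+ to CD43+, 12 of the 13 arterial and 6 of the 9 venous genes fell, where 13.5% of all genes did. One gene of each list rose, where 7.63% of all genes did. They were GJA4, an arterial gap junction gene, from 49.4 to 151 FPKM, and LEFTY1, an inhibitor of Nodal signaling, from 0.962 to 5.46 FPKM. LEFTY1 and NTS were among the 3 venous genes that fell at the step before. LEFTY1 was highest in BC1, at 17.9 FPKM, and NTS in APLNR+, at 645 FPKM.

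The A class of the family is described beside it, since EPHA4 also binds ephrin-Bs. EPHA4 was at 2.53, 32.7, 3.79 and 0.284 FPKM, so it was highest in APLNR+ as EPHB2 and EPHB3 were, with a rise of 12.9-fold. EPHA2, a receptor of epithelia, was at 21.8, 87.5, 108 and 16.3 FPKM, and EPHA1 fell from 79.97 FPKM in BC1 to 16.6 FPKM in mesoderm cells and 2.99 FPKM in HEPs. Of the 9 EphA receptors 6 passed the filter. From CD31+CD34+ to CD43+, 2 of these 6 and 4 of the 5 ephrin-A ligands fell, and none rose, beside 13.5% and 7.63% of all genes. EFNA1, a ligand that inflammatory signals induce in endothelium, rose from 4.73 to 36.9 FPKM in CD31+CD34+ and fell to 3.21 FPKM in CD43+. EFNA2 rose from 16.2 to 70.9 FPKM in APLNR+ and was at 1.53 FPKM in CD43+. EFNB1 was the only one of the 8 ligands of both classes with its highest level in CD43+.

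**Figure D4:**
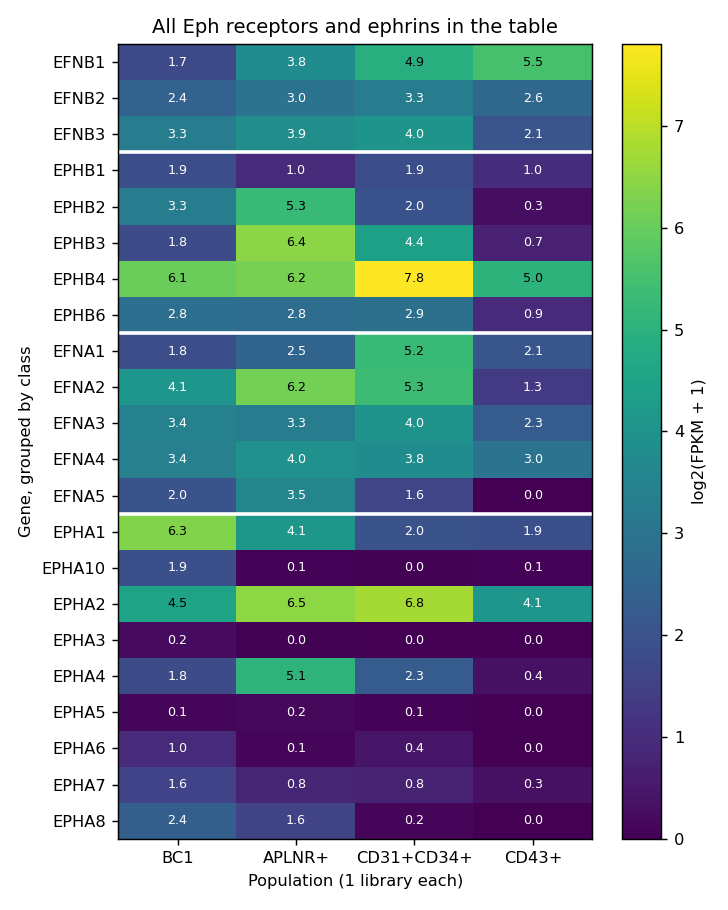
Heat map of log2(FPKM + 1) for the 22 Eph receptors and ephrins in the table (rows, with white lines between ephrin-B, EphB, ephrin-A and EphA genes) in the 4 libraries (columns), with each value printed. In the CD43+ column EFNB1 (5.54) and EPHB4 (5.04) are the highest of the family.

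Partners inside the cell were counted from lists of genes known to act with Eph receptors and ephrins. Of 26 adaptors, kinases and exchange factors of forward signaling that passed the filter, 2 rose and 1 fell from BC1 to APLNR+, 5 rose and 0 fell in CD31+CD34+, and 1 rose and 8 fell in CD43+. Of all genes 9.15% rose and 9.32% fell at the first step, 13.0% and 11.4% at the second, and 7.63% and 13.5% at the third, so the counts at the first step were no higher than those shares. SRC, a kinase that acts under both receptors and ligands, rose from 17.3 to 104 FPKM in APLNR+. FYN, a kinase of the same family, rose from 30.2 to 306 FPKM in CD31+CD34+, and the exchange factors VAV3 and ARHGEF15 from 1.04 and 0.296 FPKM to 27.9 and 7.01 FPKM. KALRN, an exchange factor that EphB receptors use in neurons, was at 4.35, 25.7, 41.7 and 215 FPKM, higher in each population than in the one before it. TIAM1, a Rac exchange factor, fell from 9.55 to 0.834 FPKM in CD43+.

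The partners of the tail and the proteases are lists of 12 genes each, beside which the shares of all genes (9.15% rising and 9.32% falling, 13.0% and 11.4%, and 7.63% and 13.5% over the 3 steps) come to fewer than 2 genes. Of 12 partners of the ephrin-B tail, 0 rose and 2 fell in APLNR+, 3 rose and 2 fell in CD31+CD34+, and 1 rose and 4 fell in CD43+. RGS3, which links the tail to G protein signaling, rose from 8.10 to 42.6 FPKM in HEPs and fell to 13.3 FPKM in HPCs. PTPN13, a phosphatase that acts on the tail, fell from 25.6 to 5.03 FPKM in CD43+, and PARD6A, a polarity protein, fell from 10.7 to 0.142 FPKM in APLNR+. Of 12 proteases linked to the shedding of Eph receptors and ephrins, 3 rose and 2 fell in APLNR+, 2 rose and 1 fell in CD31+CD34+, and 0 rose and 4 fell in CD43+. ADAM19 was at 6.87, 158, 10.6 and 0.177 FPKM and was highest in APLNR+, like EPHB2, EPHB3 and EPHA4. ADAM10, the main sheddase of the family, was at 73.1, 77.6, 113 and 226 FPKM.

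The genes whose profile was most like that of a member were found among 11039 protein-coding genes with at least 5 FPKM in some library, by the root mean square difference of centred log2(FPKM + 1) values over the 4 libraries. JUN was nearest to EFNB1 (0.14), FBN2 to EPHB3 (0.16), CPE to EPHB2 (0.21), HSPA12B to EPHB4 (0.08), CMC2 to EFNB2 (0.02), LRP4 to EFNB3 (0.08) and KCTD17 to EPHB6 (0.09). HSPA12B, a heat shock protein gene of endothelium, was at 5.39, 5.88, 17.6 and 2.04 FPKM. FBN2, which encodes a fibrillin of the embryonic matrix, was at 6.61, 176, 34.7 and 2.69 FPKM. The nearest pair among the 8 themselves was EFNB3 and EPHB6 (0.30), and EFNB1 and EPHB2 were the farthest apart (2.93). With 4 points a profile holds little, and many genes lie near a flat one such as that of EFNB2.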

How the data were processed

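RNA-seq libraries were made by the authors from total RNA with an Illumina TruSeq kit, and a table of gene-level FPKM values was deposited. The submitters' processing notes name BWA, Bowtie, RSEM and the build hg19, with no roles. The loci in the table are on GRCh38, with starts counted from 0, and 58011 of 58274 identifiers were found in GENCODE release 29. Rows of 1 identifier were summed. Columns were assigned to populations by name, and every column of values was used. The unit was taken from the values and from the scale of the study's plots.

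Values were analysed as log2(FPKM + 1) for genes that reached 1 FPKM in any library. With 1 library per population, no test was run. Depth was fitted to single-transcript genes of at least 1000 bases as the number that makes FPKM times length, less a constant, whole, and 84.3% to 86.3% of the low values fell within 0.1 of a whole number. Fragments per gene used the median length of coding transcripts, and folds have exact Clopper-Pearson 95% intervals. Intervals cover counting error only. The counts of changes and the depth fit were tested on simulated data. Coding sequences were read from GENCODE transcripts and aligned with Biopython 1.88. Upstream sequences are from RefSeq on GRCh38.p14. Protein sequences were not used here, and 1 coding sequence is not reported here.

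The members and lists were chosen with earlier results of these data known. Genes named outside the family were taken, for each list, from up to 3 with the largest rise and up to 3 with the largest fall past the threshold at each step, reaching 5 FPKM in the higher of the pair, and the 3 nearest profiles of each member that reached 5 FPKM. A part of these is given. ADAM10 was chosen after its values were seen. Versions of their tools and strand use by the authors are not given in the sources used here. Alternatives were another pseudocount, filter, threshold, scaling, background, way of joining rows and transcript length.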

Additional observations from a re-analysis of the deposited data

How the results depend on the processing

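No paired analysis was possible because each population had 1 library. With 1 library each, a difference between populations cannot be told apart from a difference between cultures or sorts. No log2 change of a member turned its direction under the alternatives tried. With a pseudocount of 0.1, 1 of the 8 genes, EPHB1, fell from BC1 to APLNR+ in place of 0, and 2575 of all genes fell at that step and 3488 from CD31+CD34+ to CD43+, in place of 1597 and 2321. Rescaling to TPM also made this number 1, again EPHB1, and moved the median change of all genes at the last step from -0.08 to -0.17. With that pseudocount, and also with TPM, 3 of the 8 rose from APLNR+ to CD31+CD34+ in place of 2. In both cases 6 fell from CD31+CD34+ to CD43+, and 6 from BC1 to CD43+, in place of 5. A filter of 5 FPKM kept fewer genes and left out EPHB1, which reached 2.68 FPKM at most. Among the genes it kept, 1019 fell at the first step. With a threshold of 2, EPHB3 and EFNB1 rose from BC1 to APLNR+ and EPHB2, at 1.98, did not. At that threshold 0 of the 8 rose from APLNR+ to CD31+CD34+. From CD31+CD34+ to CD43+ 2 fell (EPHB3 and EPHB4), and from BC1 to CD43+ 1 fell (EPHB2). Under the same threshold 460, 699, 391 and 921 of all genes rose and 393, 539, 741 and 1160 fell over the 3 steps and from BC1 to CD43+. Of the 21 genes named nearest in profile, 3 for each of 7 members, 6 were named again with a pseudocount of 0.1. For EPHB1 the shortest coding transcript gave intervals that include no change at each step, and the longest gave one from BC1 to CD43+ that does not. Depth limits the lowest levels most. At the median transcript length EPHB1 rested on about 6.12 fragments in APLNR+ and 6.33 in CD43+, and EPHB2 in CD43+ on about 15.9. With the longest coding transcript these numbers were 88.8, 98.0 and 49.5.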
